A study of Homo sapiens with 12 samples.

Results

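The 10 genes SCD, FADS1, FADS2 and ELOVL1 to ELOVL7, which encode fatty acid desaturases and elongases, were taken by symbol from a TPM table of 60662 genes. Each symbol occurs once in the table. TPM relates the transcripts of a gene, corrected for their length, to the total of its sample. The values come from NCI-H295R, a human adrenocortical carcinoma line that secretes cortisol. After 12 h without serum, confluent cultures received vehicle (VEH, 0.1% DMSO), CJ28 at 30 µM or metyrapone (MET) at 30 µM for 24 h, and each group holds 4 samples. Both compounds are studied as inhibitors of cortisol synthesis, in which MET blocks a late enzyme. What separates the samples of a group (culture, passage or day) is not given in the labels, so p-values measure the spread between these samples. All samples are of 1 cell line, and each compound was used at 1 dose and 1 time.

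Fatty acid synthase makes mainly palmitate, which is then lengthened and desaturated in the endoplasmic reticulum. Elongases of the ELOVL family catalyse the first, condensing step of each elongation round and differ in the chains they accept. Stearoyl-CoA desaturase (SCD) places the first double bond in saturated chains, and FADS1 and FADS2 add further double bonds to polyunsaturated chains. The transcription factor SREBP-1, the product of SREBF1, activates several of these genes when it is processed in lipid-poor cells. Of the members, SCD, FADS1, FADS2, ELOVL5 and ELOVL6 were set apart as textbook SREBP-1 targets, and ELOVL1, ELOVL2, ELOVL3, ELOVL4 and ELOVL7 as their paralogs.

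The labelled cell type was checked against its markers. The summed TPM of the 8 adrenocortical markers was 272 to 283 in VEH, 109 to 117 in CJ28 and 271 to 285 in MET. Among them HSD3B2, MC2R and INHA were low, with VEH means of 0.8625, 1.045 and 1.6725 TPM. All 8 were lower in CJ28 than in VEH at an adjusted p under 0.05 in limma, against 37.1% of all tested genes. Markers of endothelial cells, leukocytes and fibroblasts, 3 of each, summed to at most 1.53 TPM per list in any sample. Of 4 markers of adrenal medulla, CHGA reached 1.17 TPM in 1 MET sample, and TH, the first enzyme of catecholamine synthesis, was listed at 0 in all samples. Nuclear protein-coding genes held 21.3% to 21.4% of TPM in CJ28, 24.3% to 24.8% in VEH and 24.1% to 24.6% in MET. Median-of-ratios scaling moved the middle of all CJ28 changes from -0.13 to 0.014 on the log2 scale, and the share of lower genes among those called from 65.1% to 47.4% (40.2% in TPM over nuclear protein-coding genes).

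In CJ28, 8 of the 9 members that could be tested were lower than in VEH, and none was higher. ELOVL3, FADS2 and SCD lost most of their TPM, ELOVL6 and FADS1 kept about 40% of it, and ELOVL5, ELOVL1 and ELOVL7 fell less. ELOVL4 did not pass the test. The remaining member, ELOVL2, stayed under 0.5 TPM in every sample and was left out by the filter on low values. The count was made with limma on log2(TPM + 0.1) at an adjusted p under 0.05, where 57.0% of the 16815 tested genes were called, 37.1% lower and 19.9% higher. The CJ28 samples lay below all VEH samples for 7 of the 9 and for ELOVL2, while over all tested genes 50.3% showed no overlap and 32.7% none with CJ28 lower. The 9 tested members had a median log2 fold change of -1.24, against -0.13 over all tested genes. RNA-seq of whole cultures cannot tell fewer cells expressing a gene from less RNA per cell. In MET, 0 of the 9 members passed the test in limma, and 1 (SCD) had an unadjusted p under 0.05. Over all genes 0.00595% were called for MET, and 874 of the 16815 had an unadjusted p under 0.05. MET and VEH overlapped in every member, against 2.81% of tested genes without overlap, and 2.03% with MET lower.

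**Figure D1:**
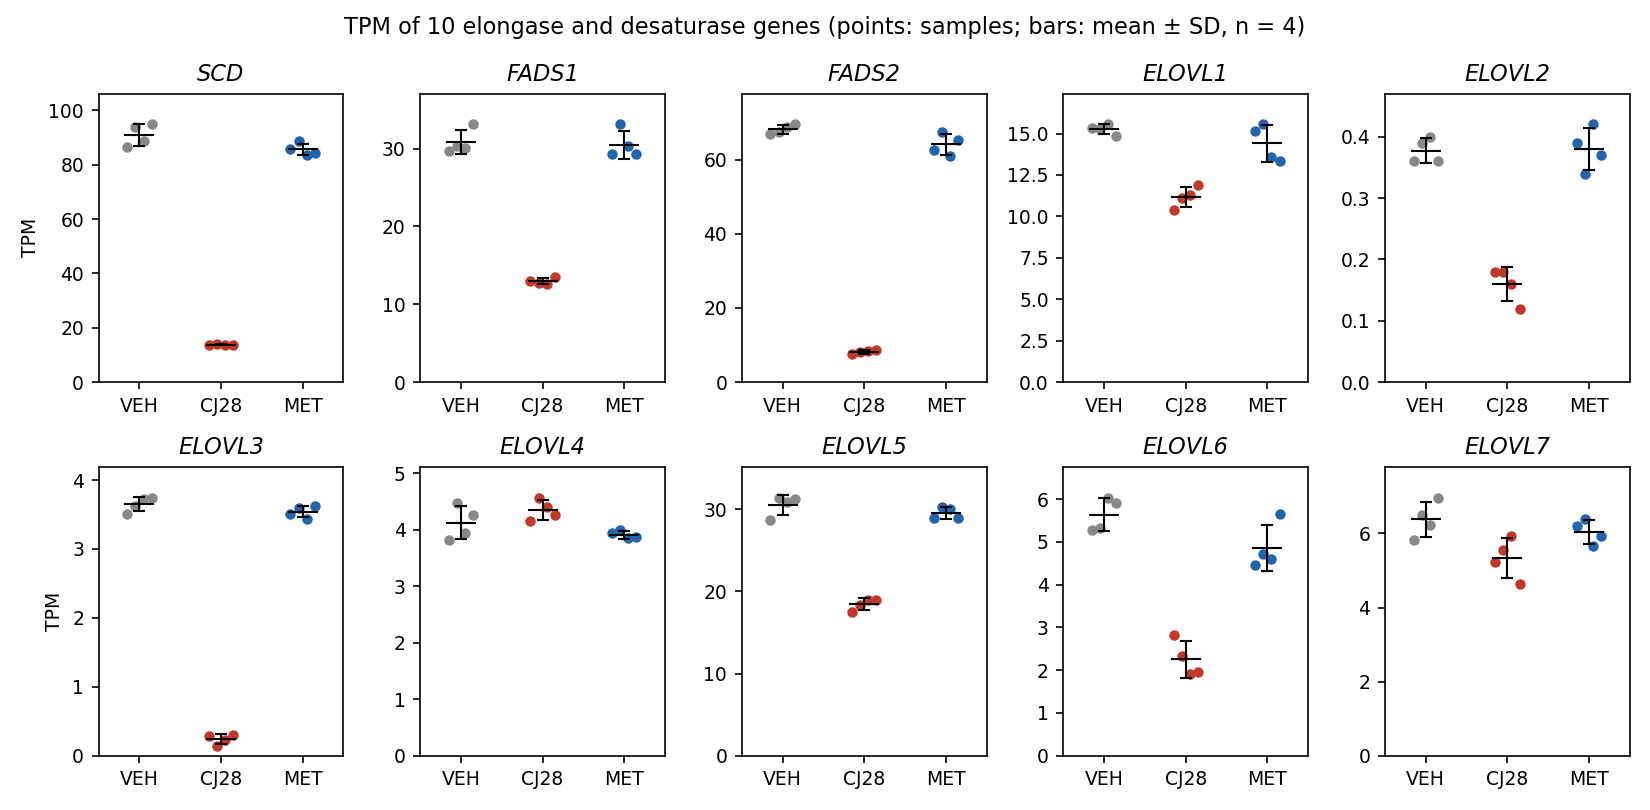
TPM (linear axes from 0, 1 panel per gene) of the 10 genes in VEH (grey), CJ28 (red) and MET (blue). Points are samples, and bars give the mean ± SD (n = 4). The CJ28 points lie below all VEH points in 8 panels, and overlap with them for ELOVL4 and ELOVL7.

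The members differed in how far they changed in CJ28, and the stretches before their start sites were compared. RefSeq promoters of GRCh38.p14, from 250 bases before to 50 after a start, matched all 10 members with 11 entries, FADS2 having 2 starts. The stretches of these 2 entries overlap. The sterol regulatory element was searched as TCACCCCAC and in the looser form TCACNCCAC, of which the first is a special case, on both strands. Neither form was found in the 11 member promoters, and they occurred in 0.430% and 1.13% of all 35116 promoters. Letters so rare would seldom be met in 11 promoters, and stretches further than 250 bases before a start were not searched. The search therefore cannot show that these genes lack the element. The letters CCAAT, bound by NF-Y, a factor known to act beside SREBP, were found in 6 of the 11, against 34.6% of all promoters. GGGCGG, the GC box, was found in 9 of 11 (45.0% of all), and the E-box CACGTG in 2 of 11 (7.26%). The share of G and C exceeded that of 99.5%, 97.9% and 94.1% of all promoters for ELOVL2, ELOVL7 and ELOVL1. For ELOVL5 and ELOVL6 it exceeded 46.3%. The counts of boxes were not corrected for this share. The windows below show the members with 2 CCAAT boxes before the start. They are printed from 5′ to 3′ on the strand of the gene, with CCAAT, or ATTGG where the box is on the other strand, in capitals.
SCD, chr10:100346993-100347062, plus strand: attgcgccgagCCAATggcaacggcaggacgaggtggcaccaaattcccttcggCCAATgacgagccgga
ELOVL3, chr10:102226219-102226298, plus strand: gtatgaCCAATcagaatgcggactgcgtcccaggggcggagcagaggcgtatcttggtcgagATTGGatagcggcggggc
ELOVL5, chr6:53349001-53349080, minus strand: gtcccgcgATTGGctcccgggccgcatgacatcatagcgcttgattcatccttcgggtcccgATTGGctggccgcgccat
ELOVL4, chr6:79947554-79947663, minus strand: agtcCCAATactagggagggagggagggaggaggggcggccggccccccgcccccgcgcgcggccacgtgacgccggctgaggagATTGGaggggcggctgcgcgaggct

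The boxes begin 229 and 186 bases before the start of SCD, 74 and 18 before that of ELOVL3, 122 and 68 before that of ELOVL5, and 106 and 25 before that of ELOVL4. SCD and ELOVL3 are among the members that fell most in CJ28, ELOVL5 fell less, and ELOVL4 did not pass the test. Whether a pair of CCAAT boxes in this window bears on the response was not tested. FADS2, which fell more than SCD, had its single CCAAT after the second start, and FADS1, ELOVL2, ELOVL6 and ELOVL7 had none.

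Among the desaturases, SCD (ENSG00000099194.6, chromosome 10, 100347233 to 100364826, GRCh38) makes oleate and palmitoleate from saturated chains. Its TPM was 86.39, 93.79, 88.59 and 94.84 in VEH, 13.77, 13.95, 13.53 and 13.60 in CJ28, and 85.79, 88.61, 83.69 and 84.38 in MET. SCD was the most abundant member in VEH, and the CJ28 samples lay far below all others. The CJ28 mean was 15.1% of the VEH mean, and the log2 fold change was -2.72 (SE, standard error, 0.035; adjusted p = 6.5e-14). For MET it was -0.09 (95% interval -0.16 to -0.0090, adjusted p = 0.933), and the MET and VEH samples overlapped.

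FADS2 (ENSG00000134824.14, chromosome 11, 61792980 to 61867354) encodes the desaturase that begins the conversion of the essential fatty acids. It had 66.90, 67.41, 68.86 and 69.48 TPM in VEH, 7.56, 8.16, 8.37 and 8.77 in CJ28, and 62.65, 67.50, 61.05 and 65.27 in MET. The CJ28 mean was 12.1% of VEH, a lower share than for SCD. The log2 fold change was -3.04 (SE 0.046, adjusted p = 1.6e-13), and for MET -0.09 (95% interval -0.19 to 0.011, adjusted p = 0.933).

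FADS1 (ENSG00000149485.19, chromosome 11, 61799627 to 61829318) encodes the desaturase that makes arachidonate. In VEH it had 29.74, 30.38, 30.13 and 33.11 TPM, in CJ28 13.06, 12.74, 12.56 and 13.53, and in MET 29.26, 33.11, 30.35 and 29.36. FADS1 thus kept 42.1% of its VEH mean in CJ28, and of the MET samples 2 lay inside the VEH range and 2 slightly below it. The log2 fold change was -1.24 for CJ28 (SE 0.049, adjusted p = 5.0e-10) and -0.016 for MET (95% interval -0.12 to 0.091). On the annotated spans of the table, FADS1 lies on the minus strand wholly inside FADS2 on the plus strand, and the RefSeq starts of both are 599 and 800 bases apart. The libraries kept strand, but whether the quantification used it is not given in the sources used here.

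FADS2 also shares 4259 bases of its annotated span with FEN1, a DNA repair gene on the same strand. The TPM of FEN1, named here after its values were seen, averaged 39.96 ± 1.43 in VEH and 17.6 ± 0.621 in CJ28 (SD, n = 4), 44.2% of VEH, a smaller loss than that of FADS2. The third gene of the cluster, FADS3, lies on the minus strand, and its span is separated from that of FADS2 by 6164 bases. It measured 6.28 ± 0.278 TPM in VEH and 6.64 ± 0.303 in CJ28, with a log2 fold change of 0.08 (adjusted p = 0.391). After median-of-ratios scaling FADS3 was called higher in CJ28 (0.23, adjusted p = 0.019). In MET it had 5.28 ± 0.593 TPM with no overlap with VEH (exact permutation test, p = 0.0286), and a log2 fold change of -0.25 that did not pass in limma (adjusted p = 0.904). The cluster of 3 desaturase genes therefore held changes of -3.04, -1.24 and 0.08 on the log2 scale before scaling.

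ELOVL6 and ELOVL3 lengthen saturated and monounsaturated chains. ELOVL6 (ENSG00000170522.9, chromosome 4, 110045846 to 110199199), which acts on palmitate, had 5.28, 5.32, 6.03 and 5.92 TPM in VEH, 2.83, 2.34, 1.90 and 1.95 in CJ28, and 4.46, 4.71, 4.60 and 5.65 in MET. CJ28 lay below every other sample, at 40.0% of the VEH mean. Its log2 fold change was -1.30 (SE 0.12, adjusted p = 1.2e-06). In MET the change was the largest among the members, -0.22 (95% interval -0.47 to 0.042), but its adjusted p was 0.933, and 1 MET sample lay inside the VEH range.

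ELOVL3 (ENSG00000119915.5, chromosome 10, 102226299 to 102229589), best known from brown fat, skin and liver, is no textbook SREBP-1 target in the split used here, yet had the lowest log2 fold change of the members. Its TPM was 3.51, 3.63, 3.72 and 3.74 in VEH, 0.28, 0.14, 0.23 and 0.30 in CJ28, and 3.51, 3.60, 3.44 and 3.62 in MET. The CJ28 mean was 6.51% of VEH, and the log2 fold change -3.50 (SE 0.14, adjusted p = 4.4e-10). Because the CJ28 values are near the pseudocount, the log2 fold change was -1.91 with a pseudocount of 1, less than that of FADS2 and SCD, and -3.94 with 0.01. In MET it was -0.04 (95% interval -0.34 to 0.25).

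ELOVL5 and ELOVL2 act on polyunsaturated chains. ELOVL5 (ENSG00000012660.14, chromosome 6, 53267398 to 53349179) was the most abundant elongase, with 28.67, 31.37, 30.86 and 31.21 TPM in VEH, 17.53, 18.35, 18.95 and 18.98 in CJ28, and 28.98, 30.29, 30.00 and 28.92 in MET. It kept 60.4% of its VEH mean in CJ28, the mildest loss among the textbook SREBP-1 targets, with a log2 fold change of -0.72 (SE 0.040, adjusted p = 1.1e-08). ELOVL2 (ENSG00000197977.4, chromosome 6, 10980759 to 11044305) was listed at 0.36, 0.39, 0.40 and 0.36 TPM in VEH, 0.18, 0.18, 0.16 and 0.12 in CJ28, and 0.39, 0.34, 0.42 and 0.37 in MET. CJ28 lay below every other sample of ELOVL2 (exact permutation test against VEH, p = 0.0286, the smallest possible). In the fit without a filter its log2 fold change was -0.88 (adjusted p = 0.0017).

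ELOVL1, ELOVL7 and ELOVL4 act on long and very long chains, some of which go into sphingolipids. ELOVL1 (ENSG00000066322.15, chromosome 1, 43363398 to 43368074) had 15.35, 15.27, 15.55 and 14.85 TPM in VEH, 10.39, 11.12, 11.32 and 11.88 in CJ28, and 15.17, 15.55, 13.56 and 13.36 in MET. CJ28 was lower without overlap, by -0.45 on the log2 scale (SE 0.057, adjusted p = 2.5e-05). Of the MET samples, 2 lay inside the VEH range and 2 below it.

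ELOVL7 (ENSG00000164181.14, chromosome 5, 60751791 to 60844274) had 5.82, 6.51, 6.22 and 6.96 TPM in VEH, 5.23, 5.56, 5.92 and 4.64 in CJ28, and 6.21, 6.40, 5.65 and 5.92 in MET. CJ28 and VEH overlapped (exact permutation test of TPM, p = 0.0571), while limma called it lower, at -0.26 on the log2 scale (SE 0.079, adjusted p = 0.015). The call was lost after median-of-ratios scaling, which sets the median change of all genes near 0 (log2 fold change -0.10, adjusted p = 0.281), and in TPM over nuclear protein-coding genes alone (-0.05, adjusted p = 0.557).

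ELOVL4 (ENSG00000118402.6, chromosome 6, 79914814 to 79947553), known for its role in retina and skin, had 3.82, 4.47, 3.94 and 4.26 TPM in VEH, 4.16, 4.56, 4.40 and 4.26 in CJ28, and 3.94, 4.00, 3.85 and 3.86 in MET. CJ28 and VEH overlapped, with a log2 fold change of 0.08 (95% interval -0.05 to 0.21, adjusted p = 0.298). After median-of-ratios scaling it was 0.23 (adjusted p = 0.0036), and over nuclear protein-coding genes 0.28 (adjusted p = 0.0013), both past the threshold and higher in CJ28. ELOVL4 is therefore a member whose call depends on how TPM is scaled. The 7 tested members besides ELOVL4 and ELOVL7 were lower and past the threshold under both scalings. In each of these 26.3% of all tested genes were called lower.

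**Figure D2:**
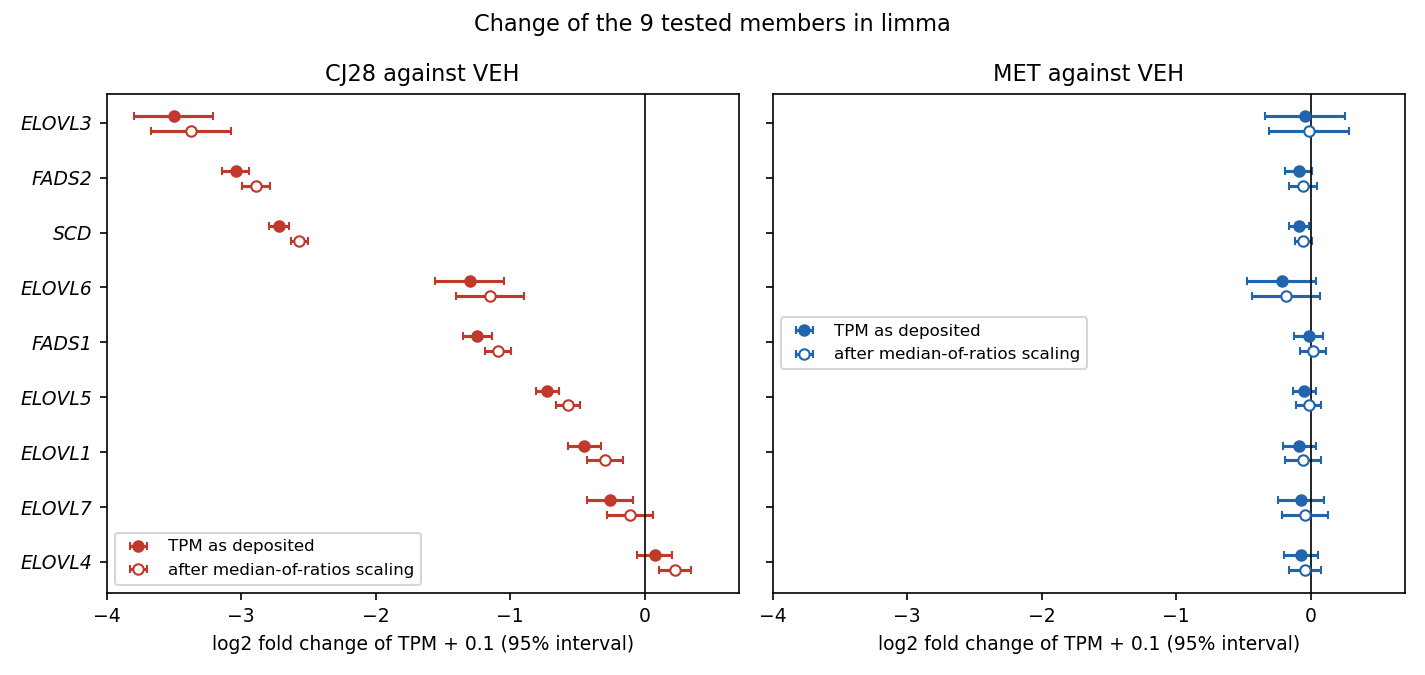
Log2 fold change of TPM + 0.1 in limma with its 95% interval, for CJ28 (left) and MET (right) against VEH, from TPM as deposited (filled) and after median-of-ratios scaling (open). With CJ28 the members spread from -3.50 (ELOVL3) to 0.08 (ELOVL4), and with MET from -0.22 to -0.016, before scaling.

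Read against all tested genes, the members fell into separate ranges. Of the 16815 log2 fold changes for CJ28, counted from the lowest, ELOVL3 held rank 14, FADS2 rank 21 and SCD rank 32. The place of ELOVL3 before the other 2 rests on the pseudocount of 0.1. With 1 its log2 fold change was -1.91, against -2.91 for FADS2 and -2.64 for SCD. ELOVL6 and FADS1 had 3.21% and 3.75% of all genes below them, and ELOVL5 13.6%. ELOVL1, ELOVL7 and ELOVL4 lay in the bulk of the distribution, with 26.1%, 39.6% and 66.9% of genes below them. Of the 5 textbook SREBP-1 targets, 5 were lower in CJ28, with a median log2 fold change of -1.30. Of their paralogs, 4 were tested and 3 were lower, with a median of -0.35, and ELOVL3 stood at the far end of that list. Over all tested genes 37.1% were called lower. After median-of-ratios scaling all 5 targets stayed lower (median -1.15), while 2 paralogs were lower and 1 higher (median -0.20). Of all tested genes 26.3% were then called lower and 29.3% higher. No test was made between the lists, since their members were chosen with results known.

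**Figure D3:**
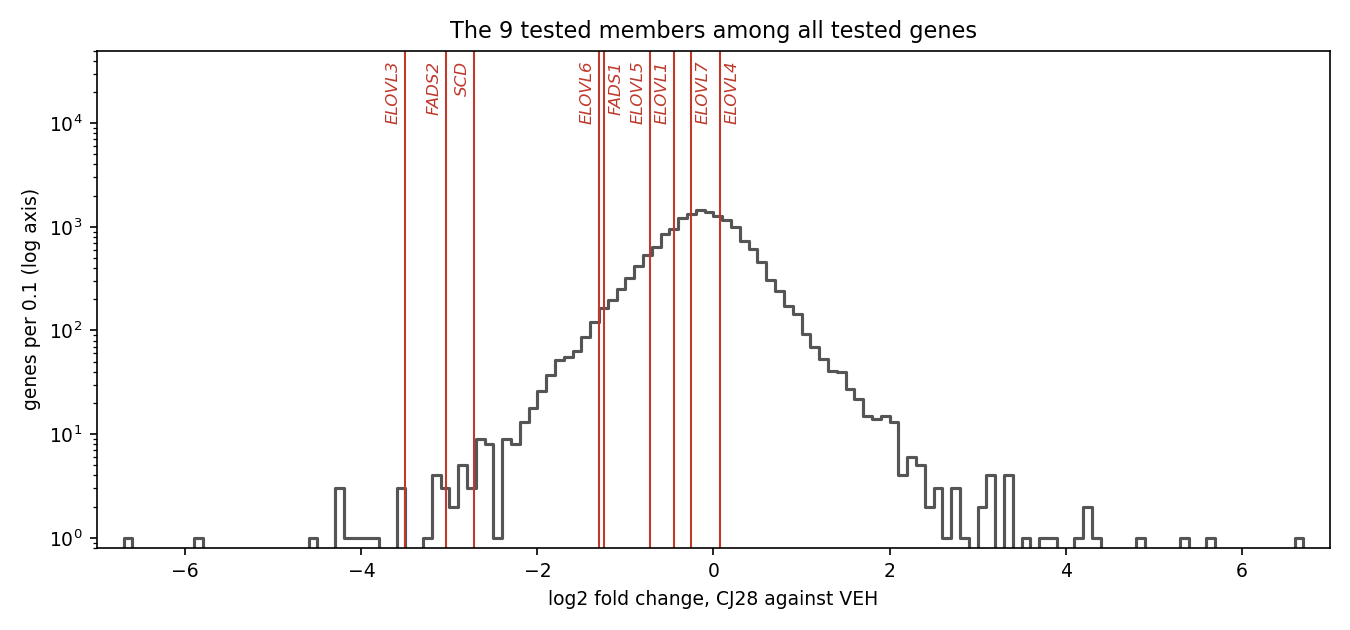
Number of genes per 0.1 of log2 fold change, CJ28 against VEH (log vertical axis), with the 9 tested members as red lines. ELOVL3, FADS2 and SCD lie in the sparse lower tail, and ELOVL1, ELOVL7 and ELOVL4 in the bulk of the genes.

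Directly between the compounds at equal dose and time, 7 of the 9 members were lower in CJ28 than in MET at an adjusted p under 0.05 in limma, against 55.5% of all genes called and 34.6% called lower. The same 7 lay below all MET samples and ELOVL4 above them, against 50.2% of tested genes without overlap and 31.3% with CJ28 lower. The log2 differences ran from -3.46 (ELOVL3) to -0.36 (ELOVL1). ELOVL7 (-0.18, adjusted p = 0.070) and ELOVL4 (0.15, adjusted p = 0.052) did not pass. The comparisons of CJ28 and of MET with VEH share the VEH samples.

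The order of the genes by TPM changed with CJ28. In VEH it ran SCD, FADS2, FADS1, ELOVL5, ELOVL1, ELOVL7, ELOVL6, ELOVL4, ELOVL3 and ELOVL2, and the MET means had the same order. The samples of FADS1 and ELOVL5 overlapped in VEH, as did those of ELOVL7 and ELOVL6. In CJ28 ELOVL5 came first, with 18.5 ± 0.680 TPM (SD, n = 4). SCD and FADS1 followed, with overlapping samples, and then ELOVL1, FADS2, ELOVL7, ELOVL4, ELOVL6, ELOVL3 and ELOVL2. FADS2 moved from the second place to the fifth, behind ELOVL1.

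Summed TPM shows the same by family, with SCD5, the other stearoyl-CoA desaturase, and FADS3 counted in. SCD with SCD5 fell from 103 ± 4.00 to 18.6 ± 0.147 TPM, the 3 FADS genes from 105 ± 2.40 to 27.8 ± 1.06, and the 7 ELOVL genes from 65.9 ± 2.11 to 42.0 ± 0.968. Each sum fell without overlap of the groups (exact permutation test, p = 0.0286 for each, n = 4 per group). In MET the sums were 97.9 ± 2.43, 99.9 ± 4.48 and 62.7 ± 1.55 TPM, and did not pass (exact permutation test, smallest p = 0.0571).

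Within families the make-up shifted as well, which does not depend on how a sample is scaled. FADS2 held 64.7% ± 0.644 of the summed FADS TPM in VEH and 29.5% ± 1.06 in CJ28. The share of FADS1 rose from 29.3% ± 0.824 to 46.6% ± 1.18, and that of FADS3 from 5.97% ± 0.359 to 23.8% ± 0.183. SCD5 went from 12.1% ± 0.576 of the SCD pair to 26.1% ± 0.652. Among elongases, ELOVL3 fell from 5.54% ± 0.0773 to 0.567% ± 0.176, and ELOVL4 rose from 6.25% ± 0.334 to 10.4% ± 0.301. ELOVL5 stayed the largest share of its family, at 46.3% ± 0.495 in VEH and 44.0% ± 0.844 in CJ28. All 15 sums and shares, which are not independent of each other, differed between CJ28 and VEH (exact permutation test, p = 0.0286 for each, 0.0286 after adjustment over the 15). For MET the smallest adjusted p was 0.343 (exact permutation test).

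**Figure D4:**
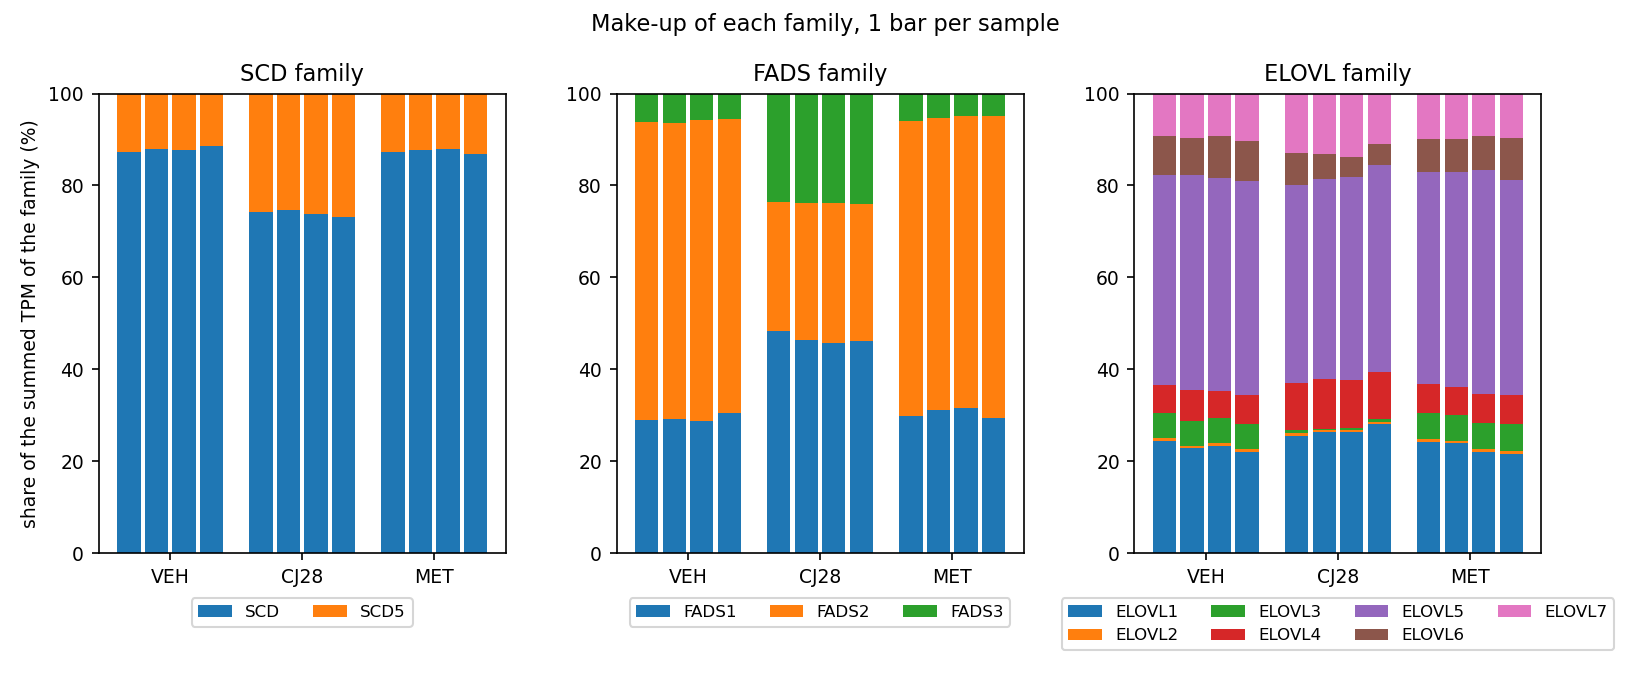
Share of each gene in the summed TPM of its family (percent, 1 bar per sample, 4 per group). In CJ28 the FADS2 share shrinks from 64.7% to 29.5% on average, and the MET bars resemble those of VEH.

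Whether paralogs differ in their response was tested on the log2 ratio of their TPM within each sample, for 7 pairs. The pairs were chosen with earlier results of these data known. How many of them pass is therefore no independent support for a difference between paralogs. In VEH SCD exceeded SCD5 by 2.85 ± 0.0787 on the log2 scale, and in CJ28 by 1.48 ± 0.0480 (SD, n = 4). The ratio thus changed by -1.37, although SCD5 itself went from 12.5 ± 0.270 to 4.84 ± 0.115 TPM (log2 fold change -1.35, adjusted p = 7.5e-11). FADS1 was below FADS2 in VEH (log2 ratio -1.14 ± 0.0534) and above it in CJ28 (0.65 ± 0.0876). The ratio of FADS2 to FADS3 changed by -3.12, and that of FADS1 to FADS3 by -1.32. The ratio of ELOVL3 to ELOVL6 changed by -2.20, with log2 ratios of -0.61 ± 0.0656 in VEH and -2.81 ± 0.430 in CJ28. The size of this change rests on the pseudocount, since ELOVL3 in CJ28 is near it. With a pseudocount of 1 the log2 fold changes were -1.91 for ELOVL3 and -1.04 for ELOVL6, and with 0.01 they were -3.94 and -1.33. In these 5 pairs the samples of CJ28 and VEH did not overlap (exact permutation test, p = 0.0286, adjusted p = 0.04 over the 7 pairs).

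ELOVL1 against ELOVL7 changed by -0.19, and ELOVL2 against ELOVL5 by -0.16 (exact permutation test, adjusted p = 0.2 for both). The second value rests on the pseudocount, since ELOVL2 is near it: with 1 the ratio rose by 0.45 and with 0.01 it fell by 0.48. For MET none of the 7 pairs passed (exact permutation test, smallest adjusted p = 0.3), with differences from -0.06 for SCD and SCD5 to 0.24 for FADS1 and FADS3.

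**Figure D5:**
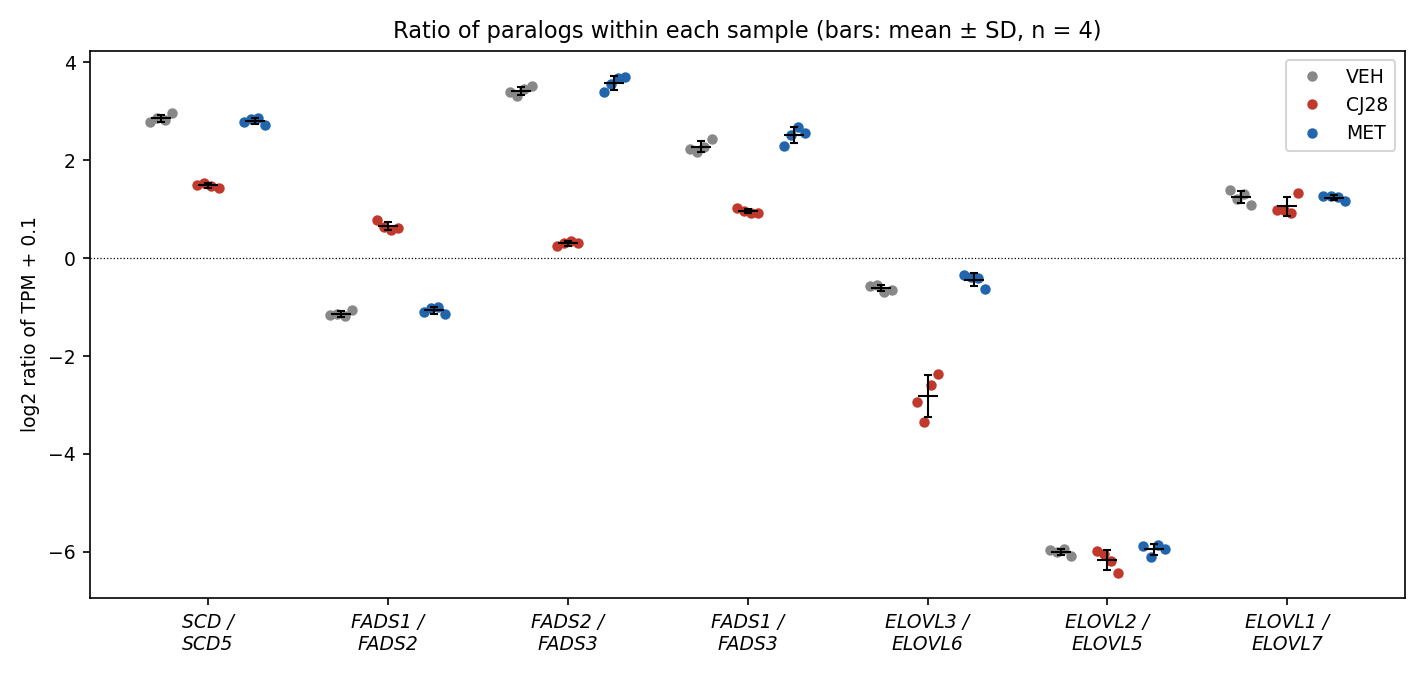
Log2 ratio of TPM + 0.1 of 7 pairs of paralogs in each sample of VEH (grey), CJ28 (red) and MET (blue), with mean ± SD (n = 4). The CJ28 points stand apart from VEH in the first 5 pairs, and the FADS1 to FADS2 ratio changes sign from -1.14 to 0.65.

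Other enzymes of the same reactions were also counted. After the ELOVL step, each elongation round is completed by HSD17B12, a dehydratase (HACD1 to HACD4) and the reductase TECR. Of these 6 genes 5 were tested in CJ28, where 3 were lower (HACD3, TECR and HSD17B12), 1 higher (HACD2) and 1 (HACD1) did not pass, with a median log2 fold change of -0.27. HACD3, the most abundant dehydratase, fell from 57.4 ± 1.35 to 34.1 ± 0.865 TPM (log2 fold change -0.75, adjusted p = 5.3e-10). TECR changed by -0.53 (adjusted p = 0.0010), HSD17B12 by -0.27 (adjusted p = 0.023) and HACD2 by 0.16 (adjusted p = 0.013). After median-of-ratios scaling 2 were lower and 2 higher, since HSD17B12 no longer passed (-0.12, adjusted p = 0.237) and HACD1 was called higher (0.36, adjusted p = 0.018). Under that scaling 26.3% of all tested genes were called lower and 29.3% higher.

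Desaturases draw electrons from cytochrome b5 and its reductases. Of 6 such genes 5 were tested and 2 were lower, CYB5R3 (log2 fold change -0.93, adjusted p = 3.3e-07) and CYB5A (-0.30, adjusted p = 1.3e-04). Of 5 other desaturases 3 were tested and 2 were lower, SCD5 and DEGS1, the ceramide desaturase (-0.86, adjusted p = 4.8e-08). Of 9 acyl-CoA synthetases, which activate fatty acids, 7 were tested and 4 were lower, led by ACSL3 (-0.82, adjusted p = 1.3e-07). Scaling left 3 of these synthetases lower, without SLC27A3 (-0.35, adjusted p = 0.096). These shares are to be read against 37.1% of all genes called lower, and the count after scaling against 26.3%.

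Upstream, palmitate synthesis was lower in 5 of 7 genes, with a median of -0.68 and the largest change in FASN (log2 fold change -1.45, adjusted p = 7.7e-06). Of 13 regulators of the family 7 were lower and 2 higher, with a median of -0.29. After scaling 5 were lower and 2 higher, with a median of -0.14, and the calls of INSIG2 (adjusted p = 0.095) and RXRA (adjusted p = 0.226) were lost. Over all tested genes 37.1% were called lower and 19.9% higher before scaling, and 26.3% and 29.3% after it. SREBF1 went from 19.7 ± 1.56 TPM in VEH to 0.955 ± 0.199 in CJ28 (-4.25, adjusted p = 2.9e-11), and SREBF2 from 13.7 ± 1.43 to 6.51 ± 1.15 (-1.07, adjusted p = 7.1e-06). INSIG1, which retains SREBP in the endoplasmic reticulum and is itself an SREBP target, changed by -2.23 (adjusted p = 1.1e-13). NR1H2, the gene of LXR beta, and MLX were the 2 higher genes, at 0.20 (adjusted p = 8.9e-04) and 0.34 (adjusted p = 9.5e-04). For MET 0 genes of these lists passed in limma, and FADS3, HSD17B12, SLC27A3, ACLY, FASN and SCAP had an unadjusted p under 0.05. Over all 16815 tested genes, 874 had such a p for MET. The MET values were small for both SREBP genes, SREBF1 having a log2 fold change of -0.15 (adjusted p = 0.956) and SREBF2 -0.22 (adjusted p = 0.933).

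Profiles most like those of 3 members were sought by the root mean square difference, over the 12 samples, of log2(TPM + 0.1) less the VEH mean, among genes averaging at least 1 TPM. Nearest to SCD were ISM1 (0.0913), RRM2 (0.105) and LRRC17 (0.153). Nearest to FADS2 were H2BC14 (0.0751), a histone gene with near-identical copies between which RSEM may split reads, RRM2 (0.172) and ISM1 (0.187). RRM2, a subunit of ribonucleotide reductase, went from 54.2 TPM in VEH to 7.74 in CJ28 and 51.0 in MET, on average. Nearest to ELOVL6 were ECM2 (0.124), NCAPH (0.151) and AMPD2 (0.160). None of these genes is on the lists of lipid genes used here.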

How the data were processed

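RNA was sequenced from NCI-H295R cells, 4 samples each of VEH, CJ28 and MET, as stranded libraries depleted of ribosomal RNA. The authors deposited TPM for 60662 genes. Per the labels and the study's methods, reads were trimmed (cutadapt 2.8), mapped by STAR 2.7.10b on GRCh38 and quantified with RSEM 1.3.3. The study tested counts with DESeq2, and counts were not analysed here. TPM holds no read counts per gene, so no counting interval or detection limit was computed.

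The values log2(TPM + 0.1) of the 16815 genes that reached 0.5 TPM in 4 or more samples entered a single limma model (limma 3.58.1 under R 4.3.3, lmFit and eBayes, trend option) of all 12 samples with no covariate. P-values were two-sided and adjusted by the Benjamini-Hochberg method over every tested gene. Paralog ratios, family shares and TPM of single genes were compared by two-sided exact permutation tests (Python 3.11.15, numpy 2.4.6), for which 4 against 4 samples allow no p under 0.0286. The procedures were tested on simulated data. Promoters came from RefSeq (GRCh38.p14), gene positions from the deposited table.

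The members, gene lists, paralog pairs and naming rule were chosen with earlier results of these data known. Named genes were the members, listed genes of the same reactions or called with the largest changes (at most 3 a list), and the 3 genes nearest in profile to SCD, FADS2 and ELOVL6. FEN1, and the listed genes named only for a direction, an unadjusted p or a call that scaling changed, were named after their values were seen. Alternatives were pseudocounts of 1 and 0.01, no filter, a filter on mean TPM (1 or more), scaling by median of ratios, TPM over nuclear protein-coding genes, fits of 2 groups, a block for the replicate number, and leaving out each sample.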

Additional observations from a re-analysis of the deposited data

How the results depend on the processing

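SCD, FADS1, FADS2, ELOVL1, ELOVL3, ELOVL5 and ELOVL6 were lower in CJ28 than in VEH, past the threshold, under each of the 16 alternatives run for them. The scalings that ended the call of ELOVL7 and made one for ELOVL4 are given with those genes, and the cause was not tested. ELOVL4 against MET passed with the mean TPM filter, both scalings, the replicate block and the fit of 2 groups (highest adjusted p = 0.0498), and ELOVL7 without CJ28 replicate 3 (-0.23, adjusted p = 0.029). Over nuclear protein-coding genes ELOVL7 against MET turned to 0.0075.

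The single gene called for MET against VEH became 0 genes with either pseudocount or the mean TPM filter, 5 without a filter, and 2 over nuclear protein-coding genes or with only 2 groups, and ranged from 0 to 2 when a sample was left out. FADS1 in MET turned to 0.015 after median-of-ratios scaling, and ran from -0.055 to 0.019 with samples left out. On leaving out samples, the MET difference ran from -0.065 to 0.035 for the ratio of ELOVL1 to ELOVL7, and in percentage points of the ELOVL sum from -0.60 to 0.25 for ELOVL1, -0.12 to 0.14 for ELOVL4 and -0.16 to 0.20 for ELOVL7. The ELOVL2 to ELOVL5 ratio in CJ28 turned to 0.45 with a pseudocount of 1. Leaving out 1 sample took the CJ28 shares of ELOVL1, ELOVL5, ELOVL6 or ELOVL7 to an exact permutation p of 0.0571 in some cases, with no change of direction.

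Same-numbered samples showed little shared deviation from their group means (mean correlation 0.024 for CJ28 and VEH, -0.024 for MET and VEH). The numbers were not treated as a pairing in the main fit, though correlations over all genes cannot exclude a weak one. With the replicate block limma called 9546 genes for CJ28 against VEH, compared with 9577 without it, and 8 members in both cases. The paired exact sign-flip test on paralog ratios called 0 of 7 pairs in CJ28, as 4 pairs cannot give a p under 0.125. TPM holds no read count per gene, so the counting error of low genes such as ELOVL2 and ELOVL3 was not computed.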

Other observations

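Genes that use fatty acid chains, among them products of the elongases, were also counted, as lists chosen with earlier results known. Of 6 ceramide synthases, which join fatty acid chains of differing length to sphingoid bases, 5 were tested in CJ28 against VEH. In limma 3 were lower (CERS2, CERS5 and CERS6) and 2 higher (CERS1 and CERS4), with a median log2 fold change of -0.17, where 37.1% of all tested genes were lower and 19.9% higher. After median-of-ratios scaling 1 was lower and 2 higher, with a median of -0.013, and the calls of CERS2 (-0.013, adjusted p = 0.819) and CERS5 (-0.30, adjusted p = 0.073) were lost. Of all tested genes 26.3% were then called lower and 29.3% higher. CERS1 changed by 0.55 (adjusted p = 0.0020), and CERS5 by -0.45 (adjusted p = 0.015). Of 7 genes of the peroxisomal step that completes polyunsaturated synthesis, 4 were lower and 2 higher, to be read against the same shares. After scaling 3 were lower and 2 higher, without ACAA1 (-0.036, adjusted p = 0.679). ABCD2, a peroxisomal transporter of fatty acids, changed by 0.39 (adjusted p = 6.3e-04). For MET 0 genes of either list passed in limma, and 1 (CERS1) had an unadjusted p under 0.05. Of all 16815 tested genes 874 had such a p.

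In none of the 30 groups of 4 samples, 1 per member and condition, did a single sample stand apart by Dixon's test at the 95% level.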
